A study of Mus musculus with 6 samples.

Results

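The 45 genes described here carry cells into, through and out of mitosis, and they were followed in primary mouse bone marrow-derived macrophages (BMMs) cultured with or without the osteoclast-inducing cytokine RANKL. They were taken by symbol from a fixed list, and 45 of 45 were found among the 24940 genes of the deposited table. Adding LEA, the ethyl acetate fraction of a water extract of the shiitake mushroom Lentinula edodes, to RANKL left the fitted difference above 0 for all 45 genes, where 58.1% of all genes tested lay above 0. Of the 45, 16 passed the test as higher (35.6%, against 4.54% of all genes tested), and leaving out 1 of the 4 libraries compared cut that count to between 0 and 5. With RANKL itself 8 were higher and 6 lower (17.8% and 13.3%), shares that did not exceed the 17.8% of all genes called in each direction, and 31 were not called.

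RNA-seq covered 3 conditions with 2 libraries each, and every culture received M-CSF at 30 ng/mL, the growth factor on which macrophage precursors depend. The no RANKL cells had no further agent, the RANKL cells had RANKL at 100 ng/mL, and the RANKL + LEA cells had RANKL at 100 ng/mL with LEA at 10 µg/mL. Donor mice were 6 to 8 weeks old, and the strain is C57BL/6 in the sample labels but ICR in the methods. The sources used here do not state the time of harvest, the solvent given to cells without LEA, or whether replicate libraries were made from different cultures, so a p-value covers the spread of these libraries alone, and that spread may be technical. In bulk RNA, fewer cells in division and less of a transcript in each such cell cannot be told apart.

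Values are FPKM, fragments mapped to exons scaled to exon length and library size, counted on 1 RefSeq transcript per gene of mouse genome build mm10. The libraries held 46380038 to 49593335 reads, and no member rested on fewer than 321 reads in any library. Osteoclast markers summed to 34.6 to 34.7 FPKM in no RANKL, 5050 to 5870 FPKM in RANKL and 2540 to 2660 FPKM in RANKL + LEA, and macrophage markers to 1820 to 1910, 1170 to 1240 and 1180 to 1210 FPKM. Most of the macrophage sum was Cd68 and Csf1r, both lower in RANKL + LEA than in RANKL, and Cd68 was higher in RANKL than in no RANKL. Adgre1, Itgam, Cd14, Mertk and Fcgr1 were lower in RANKL than in no RANKL and higher in RANKL + LEA than in RANKL. Adgre1 measured 104.6 and 97.7 FPKM in RANKL and 193.8 and 165.8 in RANKL + LEA. Of the marker lists for other cells, none of 8 erythroid, 6 B cell, 5 T and NK cell or 5 mast cell genes passed the filter on low values, and all 5 mast cell genes were at 0. Of 8 neutrophil genes 1 passed, and the list summed to 3.23 to 3.98, 0.406 to 0.646 and 1.13 to 1.73 FPKM in the 3 conditions. Stroma and osteoblast markers (3 of 7 passed) summed to 6.8 to 6.99, 3.26 to 3.42 and 4.14 to 5.85 FPKM, and endothelial markers (1 of 4) to 1.01 to 1.08, 2.88 to 2.9 and 3.35 to 3.75 FPKM. The endothelial rise came from Kdr, while Cdh5 was lower with RANKL. In the stroma list Col1a1 and Col1a2 were lower with RANKL and Runx2 was higher. Megakaryocyte markers (3 of 5) summed to 402 to 497, 10.9 to 12.3 and 37.5 to 44.8 FPKM, nearly all from Pf4, which macrophages also express. The part of these shifts in the values below was not tested.

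Mitosis starts when cyclin B with the kinase CDK1 is activated by CDC25 phosphatases. Chromosomes then condense, attach by their kinetochores to a bipolar spindle, and wait at the spindle checkpoint until all are attached. The anaphase-promoting complex with CDC20 next destroys securin and cyclin B, the sister chromatids part, and the cell is cut in 2 by cytokinesis. BMMs divide in M-CSF, whereas mature osteoclasts are multinucleated cells that form by fusion and have left the cell cycle. Most genes of this machinery are transcribed late in the cycle, and many of their promoters carry a cell cycle homology region (CHR), which the DREAM and MYBL2-FOXM1 complexes bind, together with CCAAT boxes bound by NF-Y.

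The promoters are shown because many of the members hold these letters. The rule that chose the members used only their names, but many genes of this kind are known to carry the letters, as said above. RefSeq windows (GRCm38.p6, the same coordinates as mm10) from 250 bases before to 50 bases after the transcription start were matched for 37 of the 45 members, and those of Incenp, Cdc25c, Aurkb, Foxm1, Kif20a, Ccna2, Spc24 and Tpx2 were not used here. The next lines give the 160 bases before the start, 5′ to 3′ on the gene's strand, of members with a CHR beside CCAAT boxes upstream of the start, and of Mybl2, which has neither there. All 6 stretches lie in the 5′ flank of their gene, at Cdk1 chr10:69352913-69353072 (minus strand), Top2a chr11:99024190-99024349 (minus strand), Ube2c chr2:164769769-164769928 (plus strand), Cdc20 chr4:118437344-118437503 (minus strand), Kif22 chr7:127042421-127042580 (minus strand), Mybl2 chr2:163054475-163054634 (plus strand). Capitals mark the CHR (TTTGAA or TTCGAA) and the CCAAT box, on either strand.
Cdk1: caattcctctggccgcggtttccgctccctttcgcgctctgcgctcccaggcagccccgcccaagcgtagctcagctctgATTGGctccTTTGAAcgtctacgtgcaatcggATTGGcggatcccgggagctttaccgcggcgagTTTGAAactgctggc
Top2a: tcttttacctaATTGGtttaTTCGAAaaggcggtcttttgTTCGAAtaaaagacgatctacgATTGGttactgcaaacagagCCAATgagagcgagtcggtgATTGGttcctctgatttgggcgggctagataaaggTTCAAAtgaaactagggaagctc
Ube2c: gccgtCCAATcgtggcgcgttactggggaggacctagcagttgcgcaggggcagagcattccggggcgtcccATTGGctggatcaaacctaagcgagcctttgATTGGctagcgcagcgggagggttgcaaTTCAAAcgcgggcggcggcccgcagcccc
Cdc20: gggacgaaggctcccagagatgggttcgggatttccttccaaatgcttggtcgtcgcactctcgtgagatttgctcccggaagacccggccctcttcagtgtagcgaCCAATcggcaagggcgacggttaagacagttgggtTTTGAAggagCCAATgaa
Kif22: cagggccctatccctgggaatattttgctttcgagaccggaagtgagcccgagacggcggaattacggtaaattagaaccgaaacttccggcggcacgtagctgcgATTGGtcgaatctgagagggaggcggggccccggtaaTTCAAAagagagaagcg
Mybl2: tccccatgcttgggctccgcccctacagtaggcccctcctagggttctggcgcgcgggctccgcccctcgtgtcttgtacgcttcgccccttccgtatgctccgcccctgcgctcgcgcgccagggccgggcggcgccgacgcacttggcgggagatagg

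In many other members the CHR lay a few bases inside the transcript. The 30-base stretches below hold such sites of members from several roles (Cenpa and Spc25 share a role), with the CHR in capitals. They lie around the start of the first exon, at Ccnb2 chr9:70421533-70421562 (minus strand), Cenpa chr5:30666890-30666919 (plus strand), Bub1 chr2:127831828-127831857 (minus strand), Plk1 chr7:122159453-122159482 (plus strand), Kif23 chr9:61946780-61946809 (minus strand), Spc25 chr2:69206172-69206201 (minus strand). Counted from 1 at the first transcribed base, the CHR of Kif23 began at position 3, Ccnb2 at 5, Bub1 at 15, Cenpa at 17, Spc25 at 25 and Plk1 at 31.
Ccnb2: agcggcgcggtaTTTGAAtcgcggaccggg
Cenpa: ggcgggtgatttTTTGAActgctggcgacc
Bub1: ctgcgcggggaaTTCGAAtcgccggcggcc
Plk1: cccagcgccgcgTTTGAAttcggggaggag
Kif23: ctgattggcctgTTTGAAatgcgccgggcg
Spc25: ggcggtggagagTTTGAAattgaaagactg

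A CHR was present in the windows of 28 of 37 members (75.7%), against 1242 of 9065 other tested genes (13.7%) with a window of the same length. A CCAAT box was found in 26 members (70.3%, against 39.0%), and 24 members held both (64.9%, against 5.67%). An E2F-type sequence, which was TTCCCGC or its variant TTCGCGC, or else TTGCCGC or its variant TTGGCGC, on either strand, was found in 5 members (13.5%, against 17.7%). No CHR overlapped a CCAAT box or an E2F sequence in these windows, and 2 CCAAT matches overlapped an E2F match. Of the 39 CHR matches, 28 lay within 50 bases of the start, a distance chosen after the positions were seen, and 26 of 37 members (70.3%) had one there against 298 of 9065 other genes (3.29%). When only the 250 bases before the start were searched, the CHR share was 32.4% of members against 12.3%. The windows of Kif2c, Pttg1 and Kif11 begin from a start 3852, 267 and 21 bases away from that of the deposited table.

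**Figure D1:**
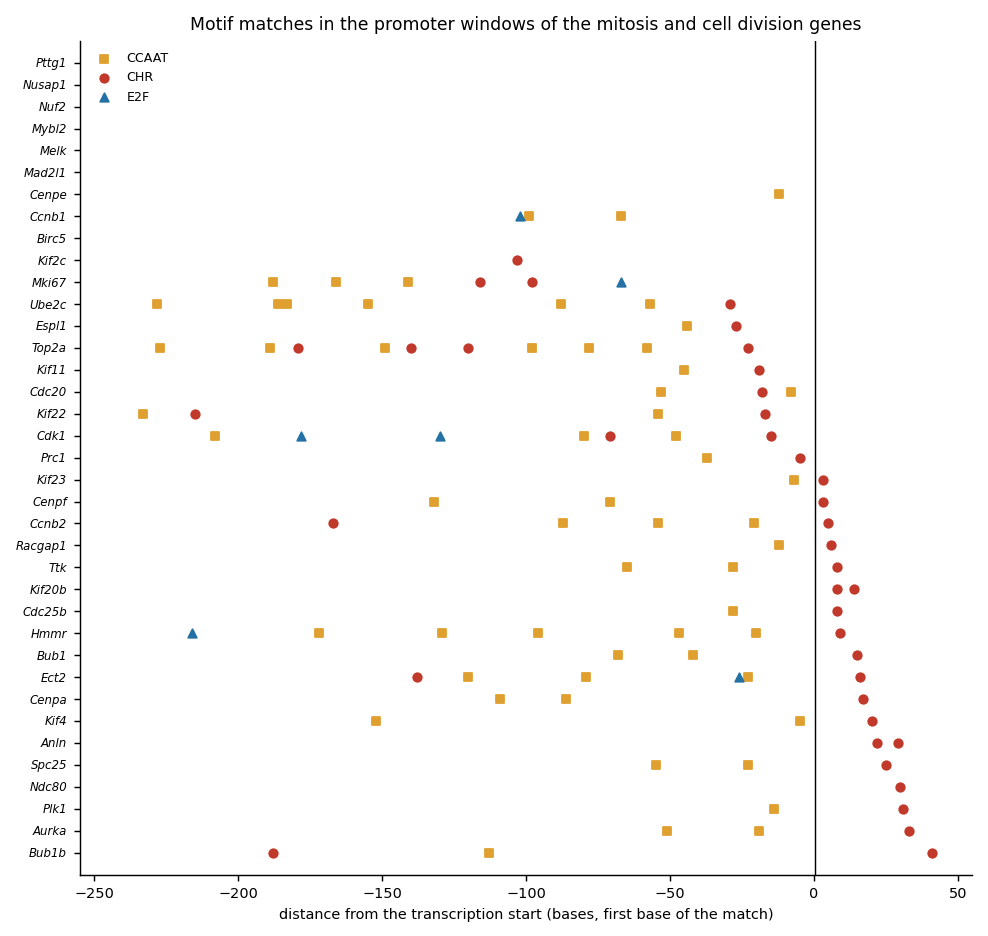
Positions of CHR, CCAAT and E2F-type matches in the promoter windows of the 37 members with one, against distance from the transcription start in bases, 1 line per gene, ordered by the CHR nearest the start. CHR matches crowd around the start (28 of 39 within 50 bases) and all CCAAT boxes of these members lie before it.

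The question of the first comparison is what RANKL alone did to these genes. A call needed an adjusted p below 0.05 (limma with Benjamini-Hochberg adjustment over 11905 genes) and a change of at least 1.5-fold. Of the members, 8 were higher in RANKL than in no RANKL (17.8%) and 6 lower (13.3%), where 17.8% of all genes tested were called higher and 17.8% lower, so neither share stood above the background. The median log2 fold change was 0.00 over the members, with a range from −1.24 to 1.57, and 0.00 over all genes. Libraries of the conditions did not overlap for 18 members that were higher and 14 that were lower, where 37.9% and 37.1% of all genes tested had no overlap. Summed over the members, expression was 800.1 and 881.5 FPKM in no RANKL, 940.0 and 838.1 FPKM in RANKL, and 1295.1 and 1230.3 FPKM in RANKL + LEA. The no RANKL and RANKL sums overlapped, while both RANKL + LEA sums lay above all others.

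Among the 8 genes of mitotic entry, RANKL raised 1 and lowered 2 (12.5% and 25%), where 17.8% of all genes tested were called in each direction. Cyclin B2, encoded by Ccnb2 (chr9:70407689-70421554, mm10), is a partner of CDK1. Its transcript measured 10.1 and 13.1 FPKM in no RANKL, 37.6 and 31.3 in RANKL, and 46.9 and 36.8 in RANKL + LEA. Every library with RANKL was above both without it, by 2.96-fold in RANKL (log2 1.57, SE 0.17, limma adjusted p = 0.00017), the largest rise among the members. Mybl2, the B-MYB transcription factor of the late cycle, ran the other way, at 14.4 and 14.4 FPKM in no RANKL, 7.18 and 5.51 in RANKL, and 7.96 and 9.26 in RANKL + LEA. Its level was lower in all 4 libraries with RANKL and fell by 1.18 on the log2 scale in RANKL (SE 0.15, limma adjusted p = 0.00039). Foxm1, the forkhead factor that activates many of these genes, showed 14.9 and 14.9 FPKM in no RANKL, 10.1 and 8.74 in RANKL, and 12.1 and 13.6 in RANKL + LEA. It fell by 0.66 in RANKL (SE 0.12, limma adjusted p = 0.00235), and by 0.56 without RANKL replicate 2, under the fold limit. The table counts reads from both strands, and Foxm1 overlaps Tex52 by 377 bases on the same strand, a gene at 0.555 to 1.33 FPKM.

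The remaining entry genes were not called with RANKL. Cdk1, the kinase itself, had a log2 fold change of −0.39 with an adjusted p of 0.0742 by limma, and Ccna2, cyclin A2, one of −0.07. Cyclin B1, from Ccnb1, measured 19.1 and 19.6 FPKM in no RANKL and 30.6 and 25.7 in RANKL, a 1.45-fold difference that fell just under the fold limit at a limma adjusted p of 0.00957. The CDK1-activating phosphatases Cdc25b and Cdc25c differed by −0.23 and 0.05.

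All 4 genes of anaphase had RANKL values above no RANKL, as had 37.9% of all genes tested. Of the 4, 3 were called, where 17.8% of all genes tested were called higher. Cdc20, the activator of the anaphase-promoting complex, measured 18.6 and 20.5 FPKM in no RANKL, 43.2 and 36.9 in RANKL, and 50.3 and 49.5 in RANKL + LEA. The groups did not overlap, and the rise was 2.04-fold (log2 1.03, SE 0.11, limma adjusted p = 0.00018). Cdc20 shares 52 bases with Elovl1 on the opposite strand, which stood at 51.4 to 76.1 FPKM, and reads of the 2 strands were not told apart there. Ube2c, the ubiquitin-conjugating enzyme of the same complex, went from 32.1 and 40.7 FPKM to 70.7 and 64.8 with RANKL, and to 88.8 and 89.6 with LEA as well. Pttg1, which encodes securin, went from 10.5 and 14.6 FPKM to 23.8 and 22.2, and to 34.1 and 30.8. Every RANKL library of both genes exceeded every no RANKL library, by 1.87-fold for Ube2c (SE of log2 0.13, limma adjusted p = 0.00072) and 1.85-fold for Pttg1 (SE of log2 0.16, limma adjusted p = 0.00226). Espl1, separase, the protease that securin holds back, measured 6.82 and 6.72 FPKM against 9.43 and 7.32 and was not called (limma adjusted p = 0.149).

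The 9 genes of the centromere, kinetochore and chromosomal passenger complex held the steepest fall and a large rise. Cenpa, the histone H3 variant of the centromere, measured 12.5 and 13.9 FPKM in no RANKL, 34.2 and 29.6 in RANKL, and 42.4 and 35.5 in RANKL + LEA. It was 2.4-fold higher in RANKL (log2 1.27, SE 0.13, limma adjusted p = 0.00013), with no overlap. Incenp (chr19:9872297-9899533), the scaffold of the passenger complex, measured 61.3 and 67.2 FPKM in no RANKL, 30.4 and 24.1 in RANKL, and 40.4 and 41.5 in RANKL + LEA. All libraries with RANKL lay below both without it, and in RANKL it fell by 1.24 on the log2 scale (SE 0.13, limma adjusted p = 0.00013). Spc25, a subunit of the NDC80 complex that grips microtubules, went from 14.9 and 19.2 FPKM to 9.68 and 9.53 with RANKL. That fall of 0.81 on the log2 scale (SE 0.15, limma adjusted p = 0.00316) was not shared by Spc24, its direct partner, at 6.3 and 8.28 FPKM against 10.2 and 9.46 (log2 0.44, not called). The difference between these 2 genes was not tested.

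Cenpf, a large kinetochore protein, measured 6.32 and 6.26 FPKM in no RANKL against 9.49 and 12.1 in RANKL and was called higher (log2 0.76, SE 0.21, limma adjusted p = 0.0196). The call was lost without no RANKL replicate 2 (limma adjusted p = 0.0506) and without RANKL replicate 2 (limma adjusted p = 0.135, log2 0.59). Cenpe, the kinetochore motor, Ndc80 and Nuf2, which form the microtubule-binding end of their complex, and Birc5, survivin of the passenger complex, were not called, at log2 fold changes of 0.36, −0.3, −0.58 and 0.22.

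The 8 kinase and checkpoint genes gave 2 falls and no rise past the limits, where 17.8% of all genes tested were called in each direction. Aurkb, the kinase of the passenger complex, measured 20.8 and 24.7 FPKM in no RANKL, 16.3 and 13.5 in RANKL, and 24.2 and 20.9 in RANKL + LEA. The RANKL libraries were the lowest, with a fall of 0.61 on the log2 scale (SE 0.14, limma adjusted p = 0.00852). That call was lost without no RANKL replicate 2 (limma adjusted p = 0.0565) and without RANKL replicate 2 (limma adjusted p = 0.0628). Ttk, the MPS1 kinase that starts the checkpoint signal, measured 5.86 and 6.9 FPKM, 4.25 and 3.41, and 6.9 and 6.15 in the same order of conditions. Again the RANKL libraries were lowest, and the level fell by 0.72 (SE 0.15, limma adjusted p = 0.00544), or by 0.57 without RANKL replicate 2, which is under the fold limit. By unadjusted p under 0.05 none of the 4 kinases and 2 of the 4 checkpoint genes (Bub1 and Bub1b) were higher. That limit was passed by 6634 of 11905 genes tested, in either direction. Limma-voom on recovered reads also called none of the 8 higher, against 18.6% of all genes tested. Plk1, the polo-like kinase, and Aurka, the spindle pole kinase, differed by 0.21 and −0.02, Melk by −0.58, and Mad2l1, which holds CDC20 in check, by −0.11.

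Spindle and cytokinesis genes gave 2 rises, 1 among the 6 genes of each role (16.7%, against 17.8% of all genes tested). Hmmr, a microtubule-binding protein of the spindle, measured 9.6 and 10.6 FPKM in no RANKL, 16.0 and 15.8 in RANKL, and 26.0 and 23.3 in RANKL + LEA, the only member called higher in all 3 comparisons. In RANKL it was 1.57-fold higher (SE of log2 0.11, limma adjusted p = 0.00171), and at log2 0.58 without no RANKL replicate 1 it fell under the fold limit. Kif20a, the kinesin that brings the passenger complex to the central spindle, went from 14.0 and 17.2 FPKM to 30.3 and 25.1, with no overlap (log2 0.83, SE 0.14, limma adjusted p = 0.00193). It shares 1595 bases with Cdc23 on the opposite strand, at 10.8 to 16.7 FPKM. Of the 4 chromosome structure genes none was called in either direction, and Top2a, topoisomerase IIα, measured 66.1 and 66.8 FPKM against 48.6 and 49.5. Its log2 difference of −0.44 had a limma adjusted p of 0.00542 but was under the fold limit. Mki67, the Ki-67 protein that coats mitotic chromosomes, measured 66.3 and 62.3 FPKM against 58.4 and 62.3 and did not differ beyond its spread. By unadjusted p under 0.05, 2 of these 4 genes were lower (Top2a and Kif4, a chromosome-arm kinesin) and none higher, and limma-voom called none. That unadjusted limit was passed by 6634 of 11905 genes tested, in either direction.

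**Figure D2:**
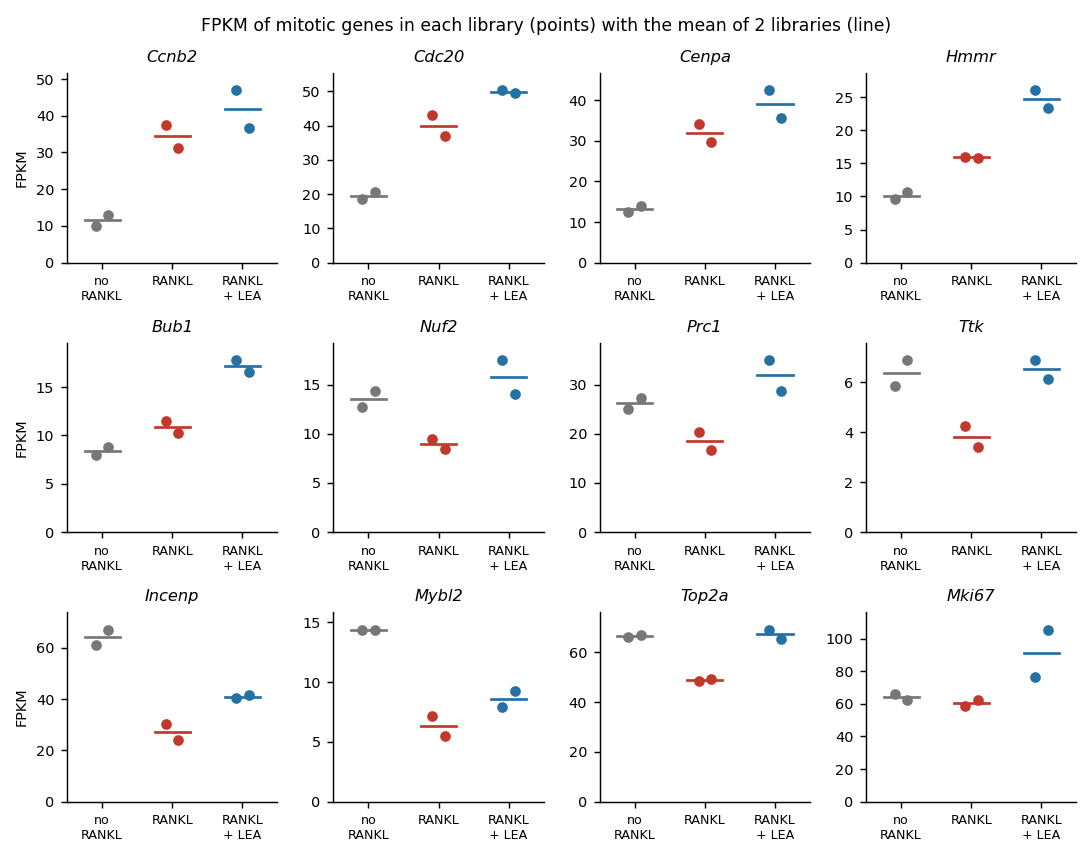
FPKM (linear axis from 0) of 12 members in each of the 6 libraries, with points for libraries and a line for the mean of 2 libraries in no RANKL, RANKL and RANKL + LEA. Ccnb2, Cdc20 and Cenpa step up with RANKL, Incenp and Mybl2 step down, and Nuf2, Prc1 and Ttk are lowest in RANKL.

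The next comparison asks what LEA changed in cells that all received RANKL. Of the 45 members 16 were higher in RANKL + LEA (35.6%) and none was lower, where 4.54% of all genes tested were called higher and 1.77% lower. By unadjusted p under 0.05, limma gave 41 members higher and none lower, where 2807 of 11905 genes tested passed in either direction. Limma-voom on recovered reads called 18 higher and none lower, against 5.4% and 2.69% of all genes tested. All 45 fitted differences were above 0, with a median log2 fold change of 0.53 and a range from 0.25 to 0.8, where the median over all genes was 0.05 and 58.1% lay above 0. Both RANKL + LEA libraries exceeded both RANKL libraries in 42 members, against 30.1% of all genes tested, with Ccnb2, Espl1 and Cenpf as the exceptions. None of the differences reached 2-fold, and 25 members passed the adjusted p without a fold limit, where 5.93% of all genes tested were higher.

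The 16 calls rest on all 4 libraries of the 2 conditions. Without RANKL replicate 1, only Incenp of the 16 was still called, and without RANKL replicate 2 none. All 16 were lost without RANKL + LEA replicate 1, where Mki67 was called instead, and 5 remained without RANKL + LEA replicate 2 (Cdc25b, Hmmr, Nuf2, Prc1 and Spc25). The share of all genes called higher was then 1.74%, 0.956%, 1.42% and 2.59%. All 45 differences stayed above 0 in each of these fits, with medians of 0.63, 0.44, 0.49 and 0.6. RANKL replicate 2 was below RANKL replicate 1 in 41 of the 45 members, by a median of −0.21 on the log2 scale, and in 8955 of 11905 genes tested, by a median of −0.13. The no RANKL libraries ran the other way, with replicate 2 higher in 38 members by a median of 0.15. The part of these shifts in the LEA values was not tested beyond these fits.

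The calls are given by role from here on, to be read against the 4.54% of all genes tested that were called higher. How they split between roles was not tested, and the role medians ran from 0.36 (anaphase) to 0.6 (spindle). Kinetochore genes held 4 of the calls. Nuf2 (chr1:169497934-169531464) measured 9.48 and 8.47 FPKM in RANKL and 17.5 and 14.0 in RANKL + LEA, beside 12.7 and 14.3 in no RANKL. It showed the largest difference among the members, 1.74-fold (log2 0.8, SE 0.14, limma adjusted p = 0.0178), and its RANKL + LEA libraries overlapped those of no RANKL. Spc25 went from 9.68 and 9.53 to 17.5 and 14.2 FPKM (log2 0.71, SE 0.15, limma adjusted p = 0.033), again overlapping the no RANKL libraries. Incenp rose from 30.4 and 24.1 to 40.4 and 41.5 FPKM (log2 0.59, SE 0.13, limma adjusted p = 0.0326) and stayed below both no RANKL libraries. Ndc80, which pairs with NUF2, rose 1.51-fold. Together with Nuf2 and Spc25 these calls take in 3 of the 4 subunits of the NDC80 complex, while Spc24 (log2 0.37, limma adjusted p = 0.165) did not pass. Cenpa, Cenpe, Cenpf and Birc5 differed by 0.29, 0.53, 0.44 and 0.51 and were not called.

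Checkpoint kinases followed. Bub1 (chr2:127800200-127831859), which recruits checkpoint proteins to kinetochores, measured 11.5 and 10.2 FPKM in RANKL and 17.8 and 16.6 in RANKL + LEA, beside 7.94 and 8.77 in no RANKL. The 3 conditions stood in steps with no overlap, and the LEA step was 1.58-fold (log2 0.66, SE 0.12, limma adjusted p = 0.0177). Ttk went from 4.25 and 3.41 to 6.9 and 6.15 FPKM (log2 0.76, SE 0.15, limma adjusted p = 0.027), a range that no RANKL shared. Aurkb did the same, from 16.3 and 13.5 to 24.2 and 20.9 FPKM (log2 0.6, SE 0.14, limma adjusted p = 0.0425). Bub1b, the BUBR1 inhibitor of CDC20, passed the adjusted p (limma, 0.0412) at 1.34-fold and so missed the fold limit, as did Plk1 at 1.35-fold (limma adjusted p = 0.0439). Mad2l1, Aurka and Melk did not pass either way, at log2 0.48, 0.48 and 0.54.

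Among spindle genes 4 of 6 were called. Hmmr rose from 16.0 and 15.8 to 26.0 and 23.3 FPKM (log2 0.63, SE 0.11, limma adjusted p = 0.0176). Kif11, the Eg5 motor that pushes the poles apart, rose from 13.7 and 12.5 to 20.4 and 19.6 FPKM, beside 13.0 and 14.0 in no RANKL (log2 0.61, SE 0.11, limma adjusted p = 0.0177). Its no RANKL and RANKL libraries overlapped, and only RANKL + LEA stood apart. Nusap1, a microtubule bundler, rose from 15.5 and 13.6 to 23.4 and 21.0 FPKM, beside 14.0 and 16.1 in no RANKL (log2 0.61, SE 0.13, limma adjusted p = 0.0275). Nusap1 shares 208 bases with Oip5 on the opposite strand, a centromere gene at 3.92 to 8.01 FPKM that was itself called higher with LEA. Kif20b, a kinesin of late mitosis, rose 1.51-fold. Tpx2, the activator of Aurora A, and Kif2c, a microtubule-depolymerizing kinesin, were not called at log2 0.58 and 0.45, the former by its fold alone (limma adjusted p = 0.0221).

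Cytokinesis genes gave 3 calls of 6. Prc1, which crosslinks the central spindle, measured 20.4 and 16.6 FPKM in RANKL and 35.0 and 28.7 in RANKL + LEA, beside 25.1 and 27.3 in no RANKL. Its RANKL + LEA libraries were the highest and its RANKL libraries the lowest, 1.72-fold apart (log2 0.78, SE 0.14, limma adjusted p = 0.0198). Kif23, the kinesin of centralspindlin, went from 16.7 and 13.5 to 25.7 and 22.9 FPKM (log2 0.69, SE 0.14, limma adjusted p = 0.0261). Ect2, the exchange factor that switches on RhoA at the furrow, went from 9.7 and 7.75 to 13.8 and 12.5 FPKM (log2 0.59, SE 0.13, limma adjusted p = 0.0366). Racgap1, the partner of KIF23, and Anln, the furrow scaffold anillin, passed the adjusted p but not the fold limit, at 1.41-fold and log2 0.58 (limma adjusted p of 0.0495 and 0.0391), and Kif20a at log2 0.38 passed neither.

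Entry and chromosome structure genes gave 1 call each. Cdc25b rose from 12.0 and 9.71 to 19.9 and 16.6 FPKM, beside 12.7 and 12.7 in no RANKL (log2 0.74, SE 0.14, limma adjusted p = 0.0218). Kif4 rose from 6.28 and 5.44 to 8.76 and 8.91 FPKM, beside 7.28 and 7.36 (log2 0.59, SE 0.12, limma adjusted p = 0.0261). In both genes the RANKL + LEA libraries were above all others. Cdk1, at 16.6 and 14.2 against 25.5 and 21.3 FPKM, was 1.52-fold higher but missed the adjusted p (limma, 0.0576), whereas Ccna2 passed it at 1.48-fold (limma, 0.0261). The sequence shared by Ccna2 and Exosc9, on opposite strands, is 863 bases long. Exosc9 stood at 15.9 to 22.6 FPKM, and reads of the 2 strands were not told apart there. Top2a stood at 69.2 and 65.4 FPKM with LEA, level with no RANKL, and its 1.37-fold difference from RANKL had a limma adjusted p of 0.0274. Kif22, the chromokinesin Kid, differed by 0.46 and was not called.

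The 4 anaphase genes, 3 of which RANKL had raised, gave no call with LEA, with log2 differences from 0.25 to 0.5. By unadjusted p under 0.05 limma gave 3 of them higher (Cdc20, Ube2c and Pttg1) and none lower, and limma-voom called none. That unadjusted limit was passed by 2807 of 11905 genes tested, in either direction. Of the 8 members that RANKL raised, only Hmmr was called again with LEA, and of the 6 that it lowered, 4 (Incenp, Aurkb, Ttk and Spc25) were called higher with LEA. These comparisons share the 2 RANKL libraries, so a low RANKL value enters both, and the 2 sets of calls are not independent. The same counts among all genes that RANKL raised or lowered are not given here. The 1 of 8 and the 4 of 6 therefore have no background to be read against.

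**Figure D3:**
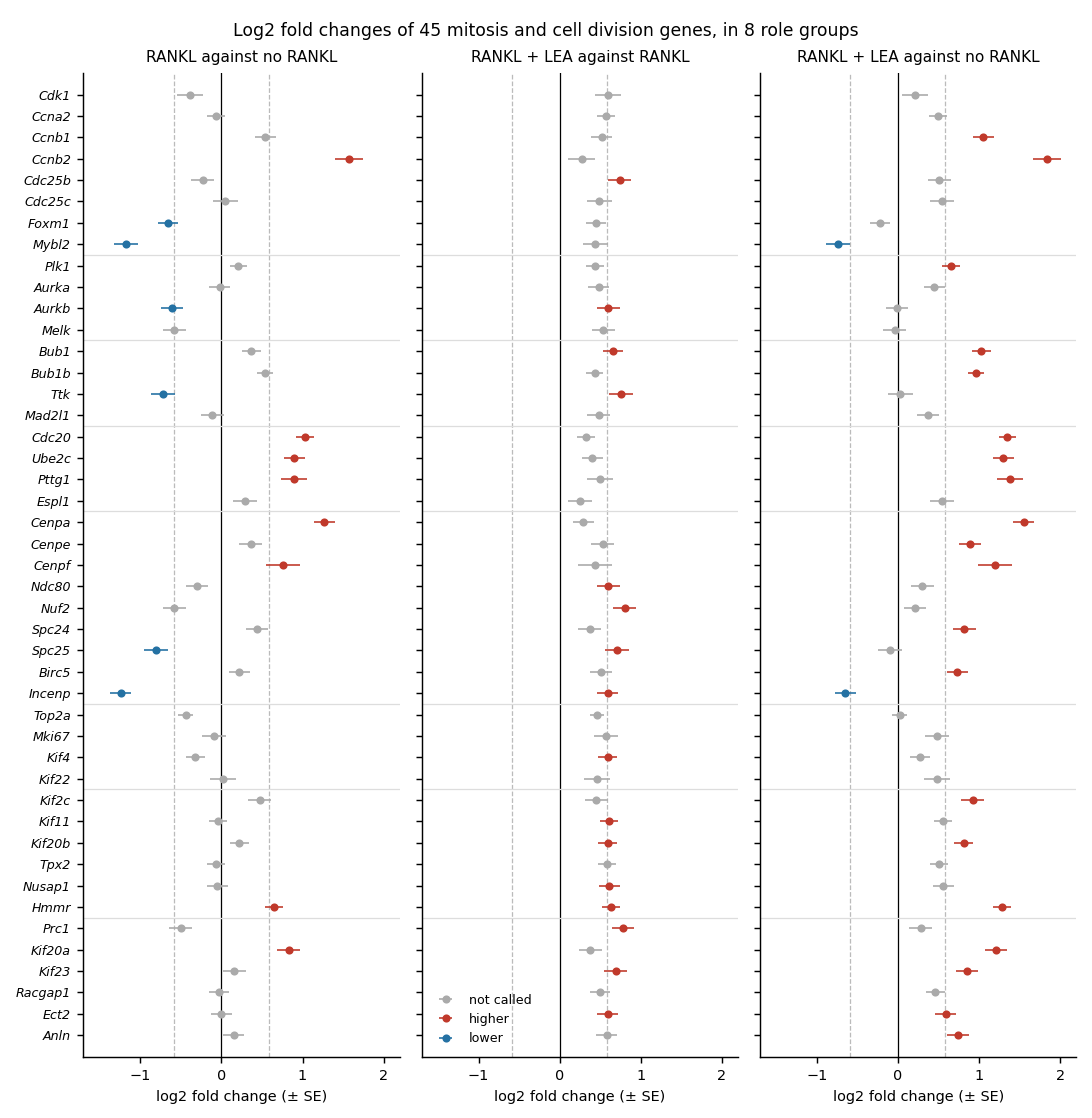
Log2 fold changes of the 45 members in their 8 role groups for the 3 comparisons, with bars for 1 standard error, red and blue for genes called higher and lower, grey for genes not called, and dashed lines at 1.5-fold. The RANKL values spread to both sides of 0, from −1.24 to 1.57, and all LEA values lie between 0.25 and 0.8.

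Set against no RANKL, cells with RANKL + LEA had 20 members higher (44.4%) and 2 lower (4.44%), where 15.5% and 11.8% of all genes tested were called. The median log2 fold change was 0.54 over the members and 0.06 over all genes, and 39 of 45 lay above 0. The libraries of the conditions did not overlap for 35 members that were higher and 3 that were lower, where 39.7% and 31.1% of all genes tested had no overlap. This comparison shares libraries with both of the others. Mybl2 and Incenp were the 2 lower genes, at −0.74 (SE 0.15, limma adjusted p = 0.00592) and −0.65 (SE 0.13, limma adjusted p = 0.00539), and the Incenp call fell to −0.58 without no RANKL replicate 2, under the fold limit. Ccnb2 was 3.58-fold, Cenpa 2.93-fold, Pttg1 2.61-fold, Cdc20 2.55-fold, Ube2c 2.46-fold and Hmmr 2.43-fold above no RANKL. A group of 8 genes was called in this comparison alone, namely Ccnb1, Plk1, Bub1b, Cenpe, Spc24, Birc5, Kif2c and Anln. For Ccnb1 the RANKL + LEA libraries measured 43.7 and 37.0 FPKM, 2.08-fold above no RANKL (log2 1.05, SE 0.13, limma adjusted p = 0.00046). Bub1b climbed from 15.2 and 15.0 through 23.0 and 21.0 to 30.0 and 29.1 FPKM, and its 3 conditions did not overlap. Plk1 (log2 0.58 without no RANKL replicate 1) and Ect2 (0.58 without no RANKL replicate 1, and 0.52 without RANKL + LEA replicate 1) fell under the fold limit when those libraries were left out.

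Ordered by mean level, RANKL + LEA was the highest condition in 39 members, and in 32 of them both of its libraries were above all 4 others. No RANKL was the highest in the other 6, clear of the rest in 3. The lowest place was split between no RANKL (23 members, 18 clear) and RANKL (22 members, 14 clear). These orders were not counted over all genes tested, so they have no background to be read against. A set of 12 members, Cdk1, Ccna2, Cdc25c, Aurka, Melk, Mad2l1, Espl1, Top2a, Mki67, Kif22, Tpx2 and Racgap1, was called in none of the 3 comparisons.

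The promoter letters can be set beside these values. A CHR was present in 6 of 7 members with a window that RANKL raised, in 2 of 3 that it lowered and in 20 of 27 that were not called. For the 28 members with a CHR the median log2 fold change was 0.08 with RANKL and 0.57 with LEA, and for the 9 without it −0.05 and 0.52. No test was made of these medians.

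Other cell cycle genes were counted from 6 lists that hold none of the 45 members. Genes of DNA replication, which act in S phase before mitosis, gave 30 of 42 lower with RANKL (71.4%, against 17.8% of all genes tested), with a median log2 fold change of −0.94, beside the 0.00 of the mitotic members. None was higher by limma, also at an unadjusted p under 0.05, or by limma-voom. Pcna, the sliding clamp, measured 360.1 and 413.7 FPKM in no RANKL, 102.7 and 88.6 in RANKL, and 144.7 and 131.9 in RANKL + LEA (RANKL against no RANKL, log2 −2.02, SE 0.12, limma adjusted p = 6.9e-06). Lig1, the ligase that joins Okazaki fragments, went from 77.7 and 78.1 to 22.2 and 21.8, and to 30.6 and 32.0 FPKM. With LEA, 2 of the 42 were called higher than in RANKL, Rrm2 and Tk1, a share of 4.76% beside 4.54% of all genes tested. The fitted difference was still above 0 in 41 of the 42, with a median of 0.38 over the list, where 58.1% of all genes tested lay above 0. Both RANKL + LEA libraries exceeded both RANKL libraries in 38 (90.5%, against 30.1% of all genes tested). By unadjusted p under 0.05, limma gave 31 higher and none lower, where 2807 of 11905 genes tested passed in either direction. Against no RANKL, 17 were lower in RANKL + LEA (40.5%, against 11.8% of all genes tested), with a median of −0.5 beside 0.54 for the mitotic members.

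The transcription factors that act on both sets of genes were counted as well. Of 18 E2F, pocket protein and DREAM genes, 10 were lower with RANKL (55.6%, against 17.8% of all genes tested), with a median log2 fold change of −0.61, and none was higher, also by unadjusted p under 0.05 and by limma-voom. E2f2, an activating E2F, went from 7.94 and 8.09 FPKM to 1.62 and 1.54 with RANKL and to 2.98 and 3.02 with LEA as well. Its fall of 2.27 (SE 0.12, limma adjusted p = 4.2e-06) left RANKL + LEA apart from both other conditions. E2f1 fell by 1.55 with RANKL (SE 0.13, limma adjusted p = 3.6e-05). With LEA 6 of the 18 were higher (33.3%, against 4.54%), at a median of 0.47, among them E2f2 (0.88), E2f8 (0.82), E2f7 (0.73) and Lin9 (0.71), the last a subunit of the complexes that bind the CHR.

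For the other mitotic lists, the shares of all genes tested to read the counts against are again 17.8% in each direction with RANKL and 4.54% higher with LEA. These lists had medians below 0 with RANKL apart from the anaphase-promoting complex. Of 32 further kinetochore and centromere genes, 7 were called lower with RANKL (21.9%, near the background) and none higher (median −0.36). The fitted difference lay below 0 in 27 of them. Libraries did not overlap for 20 that were lower (62.5%, against 37.1% of all genes tested). Unadjusted p under 0.05 by limma gave 1 higher and 15 lower, and limma-voom called none higher. That unadjusted limit was passed by 6634 of 11905 genes tested, in either direction. With LEA 3 were higher (Kntc1, Zwilch and Oip5, 9.38%), with a median of 0.49 and 31 of the 32 above 0. Limma-voom called 11 higher, against 5.4% of all genes tested. Unadjusted p under 0.05 by limma gave 22 higher and none lower, where 2807 of 11905 genes passed in either direction. Libraries did not overlap for 27 that were higher (84.4%, against 30.1% of all genes tested). Of 35 further spindle, centrosome and cytokinesis genes, 2 were higher and 5 lower with RANKL (5.71% and 14.3%, median −0.16), and 10 were higher with LEA (28.6%) with all 35 above 0 and a median of 0.52. The 2 that rose with RANKL were Aspm and Depdc1a, and those raised by LEA included Pbk (0.9), Fbxo5 (0.78), Gtse1 (0.72) and Mastl (0.71). Of 20 condensin and cohesin genes, 1 was higher and 5 lower with RANKL (5% and 25%) and 5 were higher with LEA (25%), at medians of −0.29 and 0.34. Smc2, the condensin core subunit, went from 23.6 and 24.4 FPKM to 15.1 and 15.1 with RANKL and back to 23.7 and 23.8 with LEA. The 16 subunits and activators of the anaphase-promoting complex gave 1 higher (Fzr1, log2 0.61) and 1 lower (Anapc11, −0.59) with RANKL (6.25% each), at a median of 0.14. With LEA none was called, none had an unadjusted p under 0.05, limma-voom called none, and the median was 0.02.

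**Figure D4:**
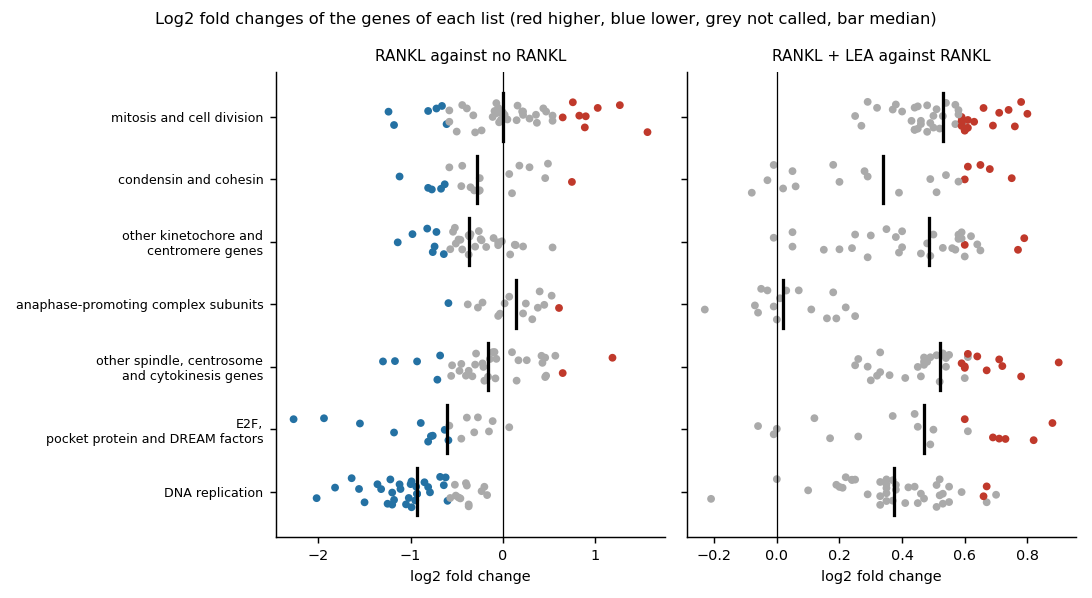
Log2 fold changes of the members and of 6 other cell cycle lists, 1 point per gene (red higher, blue lower, grey not called) with a line at the median, for RANKL against no RANKL and RANKL + LEA against RANKL. With RANKL the medians run from −0.94 for DNA replication to 0.14 for the anaphase-promoting complex, and with LEA from 0.02 to 0.53.

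The 2 libraries of a condition differed by less than 1.5-fold in all 45 members in no RANKL and in RANKL and in 44 in RANKL + LEA, where Cenpf, at 11.6 and 18.3 FPKM, was 1.58-fold apart. The differences went with exon length. In RANKL + LEA the log2 ratio of replicate 2 to replicate 1 and the log2 exon length of the members had a Pearson correlation of 0.61 and a Spearman correlation of 0.54. In no RANKL the correlations were −0.75 and −0.74, and in RANKL 0.31 and 0.07, each across 45 genes of the same 2 libraries. Over all 11905 genes the Pearson and Spearman correlations were −0.13 and −0.37 in no RANKL, 0.12 and 0.15 in RANKL, and 0.22 and 0.34 in RANKL + LEA. The 3 members with more than 7000 exon bases, Cenpf, Mki67 and Cenpe, were higher in replicate 2 of RANKL + LEA by 0.66, 0.47 and 0.36, while most shorter members were lower there. The 641 genes of that length among all tested had a median of 0.32 there. Mki67 measured 76.5 and 105.6 FPKM in RANKL + LEA, and with an SE of 0.15 its log2 difference of 0.57 from RANKL did not pass (limma adjusted p = 0.058).

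**Figure D5:**
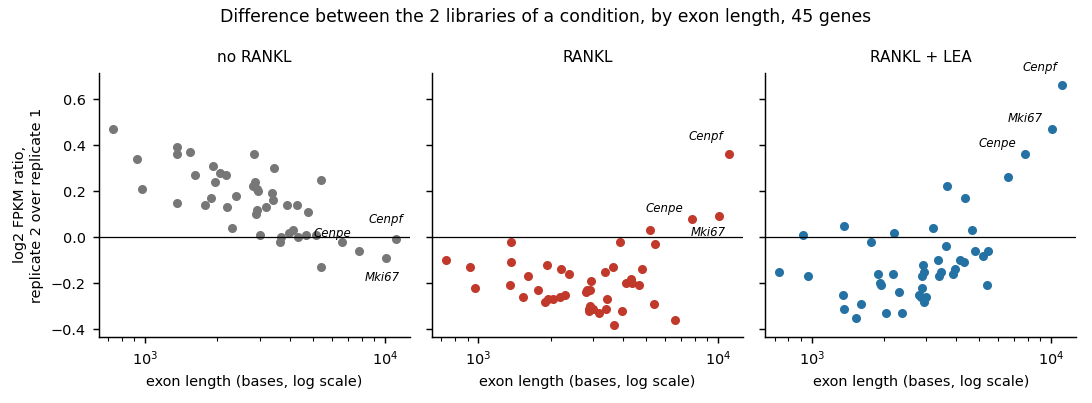
Log2 ratio of FPKM in replicate 2 over replicate 1 for each of the 45 members against exon length in bases (log axis), in no RANKL, RANKL and RANKL + LEA. The ratio falls with length in no RANKL and climbs in RANKL + LEA, where Cenpf, Mki67 and Cenpe lie at 0.66, 0.47 and 0.36.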

How the data were processed

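RNA-seq of mouse BMMs covered 3 conditions with 2 libraries each. The authors aligned reads to the mm10 genome by HISAT2 and used HOMER to count exonic reads of both strands for 1 RefSeq transcript a gene. They deposited these counts as FPKM, library by library. The methods and labels differ on the RNA kit, and tool versions were not given in the sources used here. A further part of the deposited table holds the authors' lists of changed genes from DESeq2, which were not used.

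Multiplying FPKM by exon length gave steps of 1 read, from which depth was taken (genes under 3000 bases, up to 20.5 reads), and 100% of those values were whole reads within 0.1. Log2(FPKM + 0.1) was fitted with limma 3.58.1 in R 4.3.3 (eBayes with trend, 3 residual degrees of freedom) on all 6 libraries, for the 11905 genes reaching 0.5 FPKM in 2 or more libraries. The log2 fold changes are therefore on the scale of FPKM + 0.1. P-values were adjusted by Benjamini-Hochberg over these genes. With 2 libraries a condition no permutation test was run. The fit was also run on simulated data in which each gene varied independently. Replicate differences shared across genes, as described above, were not simulated, so that run cannot check the calls against them. The members and lists were chosen with earlier results of these data known. Full values are given for up to 3 called members a role and comparison with the smallest p, and other genes named were chosen after their values were seen. Replicate numbers were not taken as pairs, since same-numbered libraries deviated together in only 1 of 3 pairs of conditions. Alternatives were other pseudocounts, filters, scalings, fits and fold limits, limma-voom on recovered reads, a replicate block, and each library left out.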

Additional observations from a re-analysis of the deposited data

How the results depend on the processing

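All 45 members stayed above 0 in RANKL + LEA against RANKL under every setting run, and no call changed direction, but the number called depended on the setting. The 16 members called higher became 8 with a pseudocount of 1, 11 with 0.5, 2 with no filter on low values, 7 with median ratio scaling, 7 with quantile normalization, 9 without the eBayes trend, 25 with no fold limit and 0 at 2-fold. Leaving out each library in turn gave 0 to 17. Of all genes tested, 540 were called higher and 211 lower in that comparison, against 439 and 328 with quantile normalization and 480 and 293 with median ratio scaling. The share of all genes called higher there, 4.54%, became 1.13% with no filter, 5.93% with no fold limit and 1.64% at 2-fold. For RANKL against no RANKL, 25% of all genes were higher and 24.3% lower with no fold limit, and 9.9% and 10.2% at 2-fold. For RANKL + LEA against no RANKL these shares were 22.6% and 16.8%, and 8.16% and 5.8%. For RANKL against no RANKL, the 8 higher and 6 lower became 13 and 10 with no fold limit and 3 and 2 at 2-fold, and 7 to 9 and 3 to 9 with each library left out, the lowest of the latter being 3 without RANKL replicate 2 and the highest 9 without RANKL replicate 1. For RANKL + LEA against no RANKL, the 20 higher and 2 lower became 31 and 2 with no fold limit, 10 and 0 at 2-fold, and 18 to 25 and 1 to 2 with each library left out. In this last comparison 1 member was lower without no RANKL replicate 2.

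Same-numbered libraries had deviations correlated at −0.08 (no RANKL and RANKL), −0.26 (no RANKL and RANKL + LEA) and 0.12 (RANKL and RANKL + LEA), so the numbers were not read as pairs. With a replicate block, the members called were 8 higher and 6 lower for RANKL against no RANKL, 13 and 0 for RANKL + LEA against RANKL (Aurkb, Incenp and Ndc80 missed the adjusted p), and 20 and 2 for RANKL + LEA against no RANKL. With the numbers of the no RANKL libraries swapped in the block, a fit chosen after seeing the data, they were 8 and 6, 17 and 0, and 20 and 2. The lowest value of a member rests on 321 reads.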
